A study of Mus musculus with 7 samples.

Results

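The data concern 10 transcription factors that direct the effector, memory and exhaustion fates of CD8+ T cells: *Bcl6*, *Prdm1*, *Tbx21*, *Eomes*, *Runx3*, *Id2*, *Id3*, *Tcf7*, *Lef1* and *Tox*. They were taken by gene symbol, and all 10 were found among the 55367 genes of the count table. CD8+ T cells from spleens of Foxp3 YFP/cre mice (a strain in which the regulatory T-cell gene *Foxp3* carries a fluorescent reporter and a recombinase) were sorted by flow cytometry, treated with small extracellular vesicles (sEVs) at 100 ug/ml for 48 hours, and profiled by 3′ RNA-seq with molecular identifiers. The cells of 3 libraries received sEVs of the leukemia microenvironment (LME-sEVs), purified from spleens of leukemic TCL1 mice, in which an oncogene driven in B cells causes a disease like chronic lymphocytic leukemia. The cells of 4 libraries received sEVs of the healthy control microenvironment (HCME-sEVs), taken from spleens of healthy mice. The cells of both groups came from mice labelled as healthy, and the labels give no age, while the study's methods give 1 general age range for its mice and not an age for these libraries. Group sizes follow the sample labels, whereas a legend of the study gives them the other way round. The dose is also that of the labels, the same for both groups. The study's general methods instead set the amount of each kind of sEV by what its own spleens held, which was more for LME-sEVs. If the doses differed, dose and origin of the sEVs cannot be told apart. The study's general methods describe culture of CD8+ T cells on anti-CD3 with an antibody to CD28 and IL2, without saying for which libraries. The labels do not say whether libraries of a group came from separate animals or cultures, so p-values measure the spread between these libraries, which may be technical.

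Naive CD8+ T cells hold high levels of TCF1 (encoded by *Tcf7*) and LEF1, a pair of related DNA-binding proteins that keep cells in a resting and self-renewing state. After activation the T-box factors T-bet (*Tbx21*) and Eomesodermin, together with RUNX3 and Blimp-1 (*Prdm1*), switch on the cytotoxic program. BCL6 and Blimp-1 repress each other's genes, ID2 and ID3 block the E-protein family of activators, and TOX is the factor best known for installing the exhausted state under lasting antigen.

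Libraries held between 3689831 and 5030522 counts, and the detection floor of 3 counts was 0.582 to 0.807 CPM, the count scaled to the size of the library. All levels below are CPM after TMM normalization (trimmed mean of M values), and the floors cover counting error only, whereas the intervals of fold changes also hold the spread between libraries. The sorted cells carried the RNA of CD8+ T cells: the summed level of 8 T-cell markers was 2074 to 2275 CPM with HCME-sEVs and 2320 to 2619 CPM with LME-sEVs, led by *Cd3d*, a chain of the T-cell receptor complex, at 474 and 547 CPM on average. Of 8 B-cell markers, led by *Ebf1*, the sum was 10.5 to 11.6 CPM and 9.89 to 11.9 CPM. Sums were 4.42 to 6.59 and 6.79 to 9.42 CPM for 5 NK-cell markers, led by *Fcer1g*, and 3.73 to 6.02 and 6.59 to 9.95 CPM for 7 myeloid markers, led by *Cd68*. They were 8.67 to 35.7 and 26.8 to 40.5 CPM for 6 basophil and mast-cell markers, led by *Mcpt8* and *Cpa3*, and 30.5 to 39.5 and 31.0 to 44.5 CPM for 5 erythroid markers, led by *Hbb-bs*. For 4 plasma-cell markers the sum was 63.6 to 85.1 and 47.6 to 59.3 CPM, nearly all of it *Xbp1*, which T cells also express, while *Mzb1* had 0 counts in every library. Called genes were *Prss34* and *Mcpt8* of the basophil and mast-cell markers and 1 erythroid marker, all higher, and *Xbp1*, lower. Few markers of the other lists had enough counts to be tested, namely 3 of 8 for B cells, 1 of 5 for NK cells and 2 of 7 for myeloid cells, and 0 of these were called. *Cd68* was higher in each LME-sEV library (1.61 and 3.14 CPM on average, edgeR FDR 0.173). The untested *Itgam*, which encodes a myeloid integrin, had 0, 0, 0 and 1 counts with HCME-sEVs and 6, 8 and 6 with LME-sEVs. The part of these other cells in the results below was not tested.

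With LME-sEVs, 4 of the 10 factors rose, with roles from memory (*Bcl6*, *Tcf7*) to terminal differentiation (*Prdm1*) and exhaustion (*Tox*), and 2 factors linked to effector cells fell. *Bcl6*, *Prdm1*, *Tcf7* and *Tox* rose, to 2.31, 1.88, 1.41 and 1.499 times the HCME-sEV mean CPM. *Tbx21* and *Id2* fell to 0.752 and 0.788 times the HCME-sEV mean. *Id3*, *Lef1*, *Runx3* and *Eomes* did not pass the test. All 10 members averaged 5 counts or more and so entered the quasi-likelihood test of edgeR. The false discovery rate (FDR) is its Benjamini-Hochberg adjusted p over the 12623 genes tested, and SE stands for standard error. An FDR under 0.05 was reached by 4 members that were higher, where 3.75% of all tested genes were called higher, and by 2 that were lower, where 5.21% were called lower. In either direction this is 6 of 10 against 8.96% of all tested genes. Because the members were chosen with earlier results of these data known, these shares are a description and not a test of the list. The median log2 fold change, LME-sEVs over HCME-sEVs as for all fold changes here, was 0.34 over the members and 0.0095 over all tested genes. Without HCME-sEV library 1 the same 4 and 2 members were called, without LME-sEV library 2 it was 3 and 0, and without LME-sEV library 3 it was 4 and 1. In bulk RNA, a change in the share of cells of a type and a change of RNA per cell cannot be told apart.

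**Figure D1:**
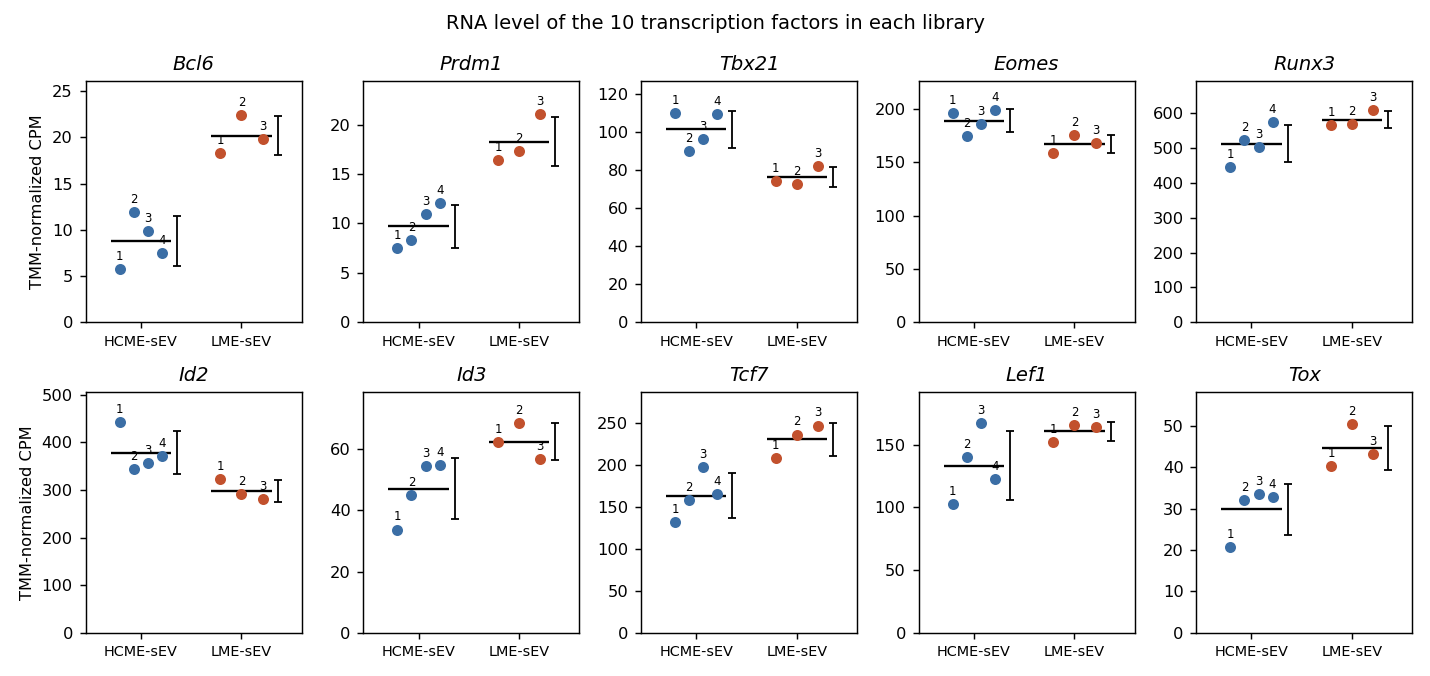
TMM-normalized CPM (vertical axes, each starting at 0 with its own scale) of the 10 factors in the 4 HCME-sEV libraries (blue) and the 3 LME-sEV libraries (orange), with points numbered by library, bars at the mean and whiskers of 1 SD. All LME-sEV points lie above all HCME-sEV points for *Bcl6*, *Prdm1*, *Id3*, *Tcf7* and *Tox* and below them for *Tbx21* and *Id2*.

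BCL6 is a transcriptional repressor best known in germinal-center B cells and follicular helper T cells, and in CD8+ T cells it favors memory precursors. *Bcl6* lies on chromosome 16 of GRCm38 from 23965052 to 23988852. Its level was 5.78, 11.9, 9.87 and 7.45 CPM in HCME-sEV libraries 1 to 4 and 18.3, 22.5 and 19.8 CPM in LME-sEV libraries 1 to 3. Every LME-sEV library was above every HCME-sEV library, and the lowest LME-sEV value was above the highest HCME-sEV value by more than either group's SD. The mean was 8.75 ± 2.69 CPM (SD, n = 4) against 20.2 ± 2.12 CPM (SD, n = 3). The log2 fold change was 1.22 (SE 0.19, edgeR FDR 6.62e-04). *Bcl6* was the member with the smallest FDR, which ranked 70 among the 12623 genes. It was also the only member past the study's cutoff of 1 on the log2 scale, which 1.28% of all tested genes passed in either direction and 0.626% as higher. The counts behind these levels were modest, from 24 to 47 per HCME-sEV library and from 68 to 102 per LME-sEV library. An overlapping gene of the opposite strand, *Gm37419*, had 0 counts. B cells also express *Bcl6*. Their summed markers overlapped between the groups at the levels given above, but only 3 of the 8 had enough counts to be tested. The part of B cells or other cells in the *Bcl6* level was not tested.

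*Prdm1*, on chromosome 10 from 44437177 to 44528501, encodes Blimp-1, the repressor that drives terminal effector differentiation and is itself repressed by BCL6. It had 7.47, 8.36, 10.9 and 12.1 CPM in HCME-sEV libraries 1 to 4 and 16.4, 17.3 and 21.1 CPM in LME-sEV libraries 1 to 3. The groups did not overlap, and *Prdm1* rose together with *Bcl6* rather than opposite to it. The mean was 9.72 ± 2.17 CPM (SD, n = 4) against 18.3 ± 2.51 CPM (SD, n = 3), a log2 fold change of 0.92 (SE 0.18, edgeR FDR 0.00340). The log2 ratio of *Bcl6* to *Prdm1* within a library, computed on log2 CPM with a prior count of 2, was -0.34, 0.49, -0.14 and -0.67 with HCME-sEVs and 0.15, 0.37 and -0.094 with LME-sEVs. These ratios overlapped between the groups, with means of -0.17 ± 0.49 (SD, n = 4) and 0.14 ± 0.23 (SD, n = 3). No near-identical 3′ end of another gene was found for *Bcl6*, *Prdm1* or any other member.

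T-bet and Eomesodermin are T-box factors with shared targets such as the genes of interferon gamma, perforin and the IL2 receptor beta chain. T-bet favors short-lived effector cells, and Eomesodermin is kept in memory and exhausted cells. *Tbx21*, on chromosome 11 from 97098071 to 97115331, had 109.9, 90.2, 96.3 and 109.4 CPM in HCME-sEV libraries 1 to 4 and 74.0, 72.6 and 82.2 CPM in LME-sEV libraries 1 to 3. All LME-sEV libraries were below all HCME-sEV libraries. The mean was 101.4 ± 9.78 CPM (SD, n = 4) against 76.3 ± 5.197 CPM (SD, n = 3), a log2 fold change of -0.41 (SE 0.095, edgeR FDR 0.0100). Without LME-sEV library 2 the log2 fold change was -0.38 and the FDR 0.0726.

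*Eomes*, on chromosome 9 from 118478212 to 118486132, had 196.6, 175.1, 185.9 and 199.0 CPM in HCME-sEV libraries 1 to 4 and 158.7, 175.7 and 167.9 CPM in LME-sEV libraries 1 to 3. HCME-sEV library 2 and LME-sEV library 2 lay within 1 CPM of each other, so the groups overlapped. The log2 fold change was -0.18 with a 95% interval from -0.34 to -0.010, and missed the threshold after adjustment (edgeR FDR 0.189). *Eomes* shares exon positions with *Gm33460* on the opposite strand, which had at most 6 counts in a library, and the strand setting of the counting is not stated. The log2 ratio of *Tbx21* to *Eomes* was -0.84, -0.95, -0.95 and -0.86 with HCME-sEVs and -1.10, -1.27 and -1.03 with LME-sEVs, lower in each LME-sEV library than in any HCME-sEV library. The means were -0.90 ± 0.059 (SD, n = 4) and -1.13 ± 0.13 (SD, n = 3). Taken singly, 7 of the 10 members did not overlap between the groups, LME-sEVs being higher for 5 and lower for 2, against 20.3% of all tested genes, 9.49% higher and 10.8% lower.

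RUNX3 is the factor of the CD8 lineage that silences *Cd4* and *Zbtb7b* and opens cytotoxic genes. *Runx3*, on chromosome 4 from 135120652 to 135177990, had 446, 524, 505 and 575 CPM in HCME-sEV libraries 1 to 4 and 566, 571 and 611 CPM in LME-sEV libraries 1 to 3. HCME-sEV library 4 was above LME-sEV libraries 1 and 2. The log2 fold change of 0.18 had a 95% interval from 0.014 to 0.36 and missed the threshold after adjustment (edgeR FDR 0.180). Without HCME-sEV library 1 it was 0.12, with an FDR of 0.351. *Zbtb7b*, which encodes the CD4-lineage factor ThPOK, rose with LME-sEVs, at 8.21 ± 3.72 CPM (SD, n = 4) against 14.9 ± 0.985 CPM (SD, n = 3), with an edgeR FDR of 0.0241. *Cd4* had at most 3 counts in any library and *Foxp3* at most 1, both at or under the floor.

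ID2 and ID3 lack a DNA-binding region and hold E proteins inactive. ID2 is linked to effector cells and ID3 to naive and memory cells. *Id2*, on chromosome 12 from 25093799 to 25097140, had 444, 343, 357 and 371 CPM in HCME-sEV libraries 1 to 4 and 324, 291 and 280 CPM in LME-sEV libraries 1 to 3. The groups did not overlap, although HCME-sEV library 2 and LME-sEV library 1 were closer to each other than HCME-sEV library 1 was to the rest of its group. The mean was 379 ± 44.9 CPM (SD, n = 4) against 298 ± 22.6 CPM (SD, n = 3), a log2 fold change of -0.35 (SE 0.089, edgeR FDR 0.0192). The FDR was 0.101 without LME-sEV library 2 and 0.122 without LME-sEV library 3.

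*Id3*, on chromosome 4 from 136143497 to 136145755, had 33.7, 45.1, 54.4 and 54.9 CPM in HCME-sEV libraries 1 to 4 and 62.2, 68.5 and 56.6 CPM in LME-sEV libraries 1 to 3. The groups did not overlap, but LME-sEV library 3 stood close to HCME-sEV libraries 3 and 4. The log2 fold change was 0.41 with a 95% interval from 0.13 to 0.68, and the FDR of 0.0593 from edgeR missed the threshold. The log2 ratio of *Id2* to *Id3* was 3.70, 2.92, 2.70 and 2.74 with HCME-sEVs and 2.37, 2.08 and 2.30 with LME-sEVs. It was lower in each LME-sEV library, with means of 3.01 ± 0.47 (SD, n = 4) and 2.25 ± 0.15 (SD, n = 3). The difference of -0.77 between the means was -0.54 without HCME-sEV library 1.

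**Figure D2:**
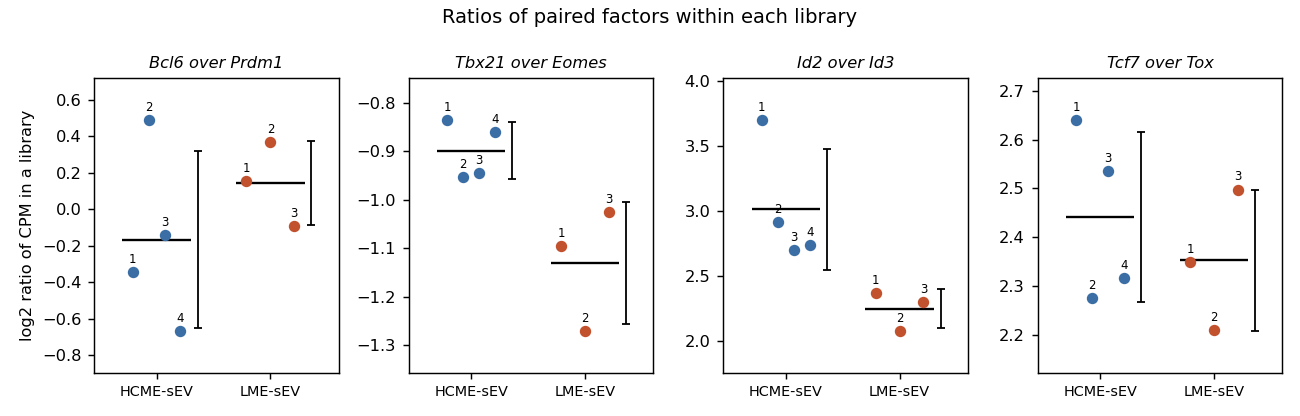
Log2 ratio of the CPM of paired factors (vertical axes, each with its own scale that does not start at 0) in the 4 HCME-sEV libraries (blue) and the 3 LME-sEV libraries (orange), with points numbered by library, bars at the mean and whiskers of 1 SD. The ratios of *Tbx21* to *Eomes* and of *Id2* to *Id3* are lower in all 3 LME-sEV libraries, and those of *Bcl6* to *Prdm1* and *Tcf7* to *Tox* overlap.

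*Tcf7* lies on chromosome 11 from 52252371 to 52283014 and had 131.5, 157.6, 197.1 and 165.5 CPM in HCME-sEV libraries 1 to 4 and 207.7, 235.7 and 246.4 CPM in LME-sEV libraries 1 to 3. The groups did not overlap, with HCME-sEV library 3 next to LME-sEV library 1. The mean was 163.0 ± 27.0 CPM (SD, n = 4) against 230.0 ± 19.999 CPM (SD, n = 3), a log2 fold change of 0.50 (SE 0.10, edgeR FDR 0.00493). Its relative *Lef1*, on chromosome 3 from 131110471 to 131224356, had 102.6, 140.6, 167.8 and 122.7 CPM in HCME-sEV libraries 1 to 4 and 152.3, 166.1 and 164.4 CPM in LME-sEV libraries 1 to 3. HCME-sEV library 3 was above all LME-sEV libraries. The log2 fold change of *Lef1* was 0.27 with a 95% interval from 0.034 to 0.51, and its edgeR FDR was 0.153. Left out in turn, HCME-sEV library 3 was the one that brought *Lef1* under the threshold, with a log2 fold change of 0.40 and an FDR of 0.0123, whereas without HCME-sEV library 1 they were 0.17 and 0.329.

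*Tox*, on chromosome 4 from 6686353 to 6991557, had 20.7, 32.2, 33.6 and 32.8 CPM in HCME-sEV libraries 1 to 4 and 40.4, 50.6 and 43.2 CPM in LME-sEV libraries 1 to 3. The groups did not overlap, and HCME-sEV library 1 stood apart below the others of its group. The mean was 29.8 ± 6.10 CPM (SD, n = 4) against 44.7 ± 5.26 CPM (SD, n = 3), a log2 fold change of 0.59 (SE 0.14, edgeR FDR 0.0122). Without LME-sEV library 2 the log2 fold change was 0.49 and the FDR 0.104, and without HCME-sEV library 1 they were 0.45 and 0.0208. *Tcf7*, which marks the progenitor state of exhausted cells, and *Tox* rose by similar amounts, and the log2 ratio of *Tcf7* to *Tox* overlapped between the groups, with means of 2.44 ± 0.17 (SD, n = 4) and 2.35 ± 0.14 (SD, n = 3). *Tox2* and *Tox3*, further members of the TOX family, had at most 1 and 10 counts in a library and were not tested.

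**Figure D3:**
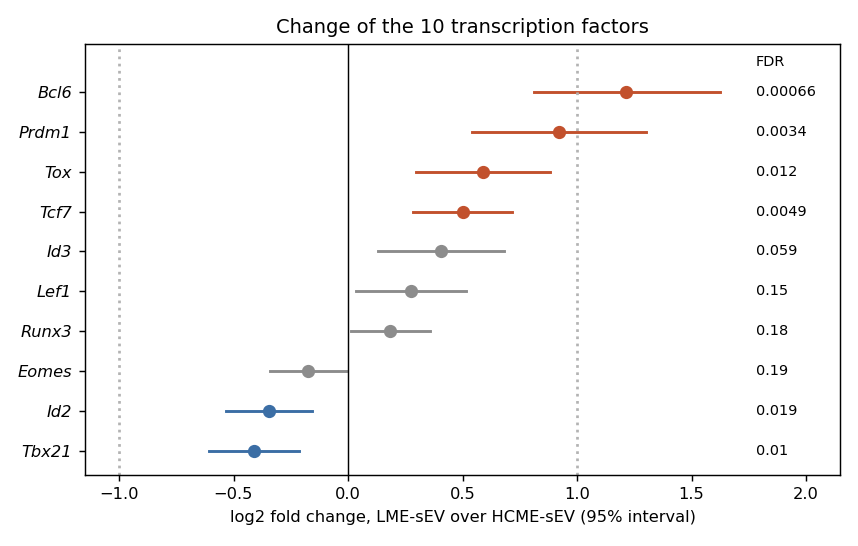
Log2 fold change of each factor, LME-sEVs over HCME-sEVs (horizontal axis), with its unadjusted 95% interval and the FDR over 12623 genes at the right; orange marks factors called higher, blue called lower, and grey not called, and dotted lines mark the cutoff of 1 in either direction. The intervals of *Id3*, *Lef1*, *Runx3* and *Eomes* exclude 0 before adjustment, yet their FDR was 0.0593 or more.

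The levels were also compared without a fitted model. The two-sided exact permutation test of the mean log2 CPM, over the 35 ways to assign 3 of the 7 libraries to LME-sEVs, cannot go below p = 0.0286. That smallest p was given by *Bcl6*, *Prdm1*, *Tbx21*, *Id2* and *Tox*, before any correction. For *Tcf7* the exact p was 0.0571 and for *Id3* 0.114, although their groups did not overlap. The exact p was 0.0857 for *Eomes*, 0.114 for *Runx3* and 0.20 for *Lef1*.

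Within the HCME-sEV group, library 1 lay at the end of the group's range for most members, on the side away from the LME-sEV group. Being at the end of the range does not mean a wide gap to the next library, as for *Tbx21* at 109.9 and 109.4 CPM in libraries 1 and 4. The other libraries of the group held no common order. Nearest to the LME-sEV mean was library 2 for 4 members, library 3 for 3 and library 4 for 3. HCME-sEV library 1 was the one farthest from the LME-sEV mean for 9 of the 10 members, with the lowest *Bcl6*, *Prdm1*, *Runx3*, *Id3*, *Tcf7*, *Lef1* and *Tox* and the highest *Tbx21* and *Id2* of its group, and for *Eomes* it was HCME-sEV library 4. The SD as a share of the mean was larger in the HCME-sEV group than in the LME-sEV group for all 10 members. It ran from 5.80% for *Eomes* to 30.8% for *Bcl6* with HCME-sEVs, and from 4.21% for *Runx3* to 13.7% for *Prdm1* with LME-sEVs. Neither this order of spreads nor the place of library 1 was counted over all tested genes, so neither can be called particular to these factors. Over all tested genes, HCME-sEV library 1 also lay farthest from the LME-sEV libraries on the first principal component, at -26.4, where the other HCME-sEV libraries lay between -18.4 and -4.57 and the LME-sEV libraries between 19.2 and 23.3. After the mean of each group was taken out, Pearson's r over the 7 libraries ranged from -0.87 (*Id2* and *Tox*) to 0.91 (*Id3* and *Tox*) over the 45 pairs of members, as a description of points that share a library and its depth. Its size was above 0.5 in 29 pairs and below 0.2 in 6, and pairs of other genes were not counted for comparison. *Bcl6* and *Prdm1*, which both rose, had an r of 0.16, and *Prdm1* and *Tbx21*, which changed in opposite directions, 0.29.

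The 3 tested genes most like *Bcl6* by Pearson's r of log2 CPM over the 7 libraries, among 9694 with a mean of at least 20 counts, were *Cdk19* (0.988), *Mcub* (0.988) and *Cxcr5* (0.987). An r above 0.9 was reached by 207 of these 9694 genes. This r includes the difference between the groups, and *Bcl6* was picked as the member with the smallest FDR for that difference. *Cxcr5*, the receptor that guides lymphocytes into B-cell follicles and is found with *Bcl6* and *Tcf7* in follicular T cells, had 3.85, 6.84, 5.60 and 5.35 CPM with HCME-sEVs and 8.61, 11.01 and 9.31 CPM with LME-sEVs. Its log2 fold change was 0.84 (edgeR FDR 0.0249), on 16 to 49 counts per library.

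Sequences before a gene start are shown for 3 members that changed and whose windows hold no annotated exon of the gene: *Bcl6* and *Prdm1*, which rose together, and *Tbx21*, which fell. Each is the 250 bases before the most upstream of the gene starts listed from RefSeq (GRCm38.p6), read 5′ to 3′ on the strand of the gene, here the minus strand in each case. For *Prdm1*, GENCODE also lists a retained-intron transcript that starts farther upstream, at the end of the locus given above, so that this window lies inside that locus. The windows cover chr16:23988853-23989102 for *Bcl6*, chr10:44458749-44458998 for *Prdm1* and chr11:97115332-97115581 for *Tbx21*. Capitals mark matches on either strand to CANNTG, the general form of the E-box, and to TTCNNNGAA, the form read by STAT factors. The E proteins that ID2 and ID3 block bind E-boxes, but a match to the general form need not be one of theirs.
Bcl6: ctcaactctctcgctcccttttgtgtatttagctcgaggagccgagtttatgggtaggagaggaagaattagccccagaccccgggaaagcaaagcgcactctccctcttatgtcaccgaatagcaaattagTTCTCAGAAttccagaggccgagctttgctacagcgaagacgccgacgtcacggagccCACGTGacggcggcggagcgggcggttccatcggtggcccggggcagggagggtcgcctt
Prdm1: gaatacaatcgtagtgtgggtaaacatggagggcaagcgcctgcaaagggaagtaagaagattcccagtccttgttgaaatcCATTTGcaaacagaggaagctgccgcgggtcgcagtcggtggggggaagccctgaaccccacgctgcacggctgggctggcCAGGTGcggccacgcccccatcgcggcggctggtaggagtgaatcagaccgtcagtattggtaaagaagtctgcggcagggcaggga
Tbx21: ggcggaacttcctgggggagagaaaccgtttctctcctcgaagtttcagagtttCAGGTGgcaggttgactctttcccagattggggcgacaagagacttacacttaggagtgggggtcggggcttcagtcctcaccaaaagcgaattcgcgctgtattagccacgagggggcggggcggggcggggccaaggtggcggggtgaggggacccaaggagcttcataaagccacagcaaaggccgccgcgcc
The *Bcl6* window held the STAT form TTCTCAGAA and the E-box CACGTG, that of *Prdm1* the E-boxes CATTTG and CAGGTG, and that of *Tbx21* the E-box CAGGTG. A window was found for 9 members, *Tox* being the one without. For *Id2* and *Id3* it overlaps annotated exons of the gene, so it is not upstream sequence alone. Exons that the annotation lacks would not be seen this way, so windows of other members may also hold transcribed sequence. Of the 9 windows, 7 held CANNTG, that of *Id2* included, as did 66.1% of 27025 such windows of all genes. TTCNNNGAA was in 1 of the 9 and in 7.14% of all. TGTGGT, a form bound by RUNX factors, was in 1 member's window (*Runx3* itself, at 2 places) and in 14.2% of all windows, and CTTTGAT, a form bound by TCF1 and LEF1, was in 0 of 9 and in 3.26% of all. These are matches of letters and not sites of binding.

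Genes that work with or beside the 10 factors were described from lists written by hand. The counts below stand beside 8.96% called among all tested genes, 3.75% higher and 5.21% lower, and a median log2 fold change of 0.0095. Among 25 other fate factors of T cells, 24 were tested, 5 were called higher and 2 lower (29.2% called), and the median log2 fold change was 0.10. *Ikzf2*, which encodes Helios, had a log2 fold change of 1.06 (edgeR FDR 5.10e-05, from the same fit as for all genes in these lists). *Rora*, a nuclear receptor, had 1.01, *Myb*, a factor that maintains stem-like memory cells, 0.65, and *Stat3* 0.49. *Batf3*, an AP-1 family factor induced by activation, fell by 0.98 on the log2 scale. The partners and relatives of the 10 factors moved little: of 22, 15 were tested and *Tcf12*, an E protein of the kind that ID2 and ID3 bind, was the only one called, with a log2 fold change of 0.34 (FDR = 0.0196). It was not called without LME-sEV library 2 or without LME-sEV library 3.

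The effector genes split. Of 18, 17 were tested, 3 were called higher and 5 lower (47.1% called), with a median log2 fold change of 0.054. *Ccl4*, a chemokine, fell by 0.46 and *Fasl*, the death ligand, by 0.54 on the log2 scale. The others called lower were *Ifng*, given below, *Tnf* (-0.48, edgeR FDR 0.0126) and *Gzmb* (-0.35, edgeR FDR 0.0335), the last with overlapping groups. *Ccl5*, another chemokine, rose by 0.66, *Gzmk*, a granzyme found in memory-like cells, by 1.65, and *Klrk1*, which encodes the activating receptor NKG2D, by 0.50. The *Gzmk* value rests on few counts, from 5 to 23 per HCME-sEV library and from 28 to 54 per LME-sEV library. Of the genes named above as shared T-box targets, *Ifng* was called lower with a log2 fold change of -0.39 (FDR = 0.0288). Its groups overlapped, LME-sEV library 3 at 475 CPM being above HCME-sEV library 4 at 428 CPM. *Prf1* and *Il2rb* were at 0.093 and -0.15 with an FDR of 0.247 or more. These 3 targets were singled out after their values were seen. Without LME-sEV library 2, the number of effector genes called was 3 in place of 8.

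Of the naive and memory genes, all 12 were tested, 5 were called higher and 2 lower (58.3% called), and the median log2 fold change was 0.36. *Slamf6*, a surface marker of TCF1-positive progenitors, rose by 0.53, *Il7r*, the IL7 receptor of long-lived cells, by 0.52, *Cd27* by 0.45 and *S1pr1*, the receptor for exit from lymphoid tissue, by 0.63. *Bcl2*, a survival gene, fell by 0.53. The number called was 4 without LME-sEV library 2 and 4 without LME-sEV library 3. Of 12 exhaustion-associated genes, 10 were tested, 3 were called higher and 0 lower (30% called), with a median of 0.39. These were *Pdcd1* (0.68, FDR = 0.00128) and *Ctla4* (0.58, FDR = 0.00307), which encode the inhibitory receptors PD1 and CTLA4, and *Cd38* (0.90, FDR = 0.00941), an ectoenzyme. *Havcr2*, *Lag3* and *Cd160* did not pass the test, and *Tigit* had at most 3 counts in a library. Beside these lists, 2 of the 8 T-cell markers were called higher, with a median log2 fold change of 0.20 over the 8.

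**Figure D4:**
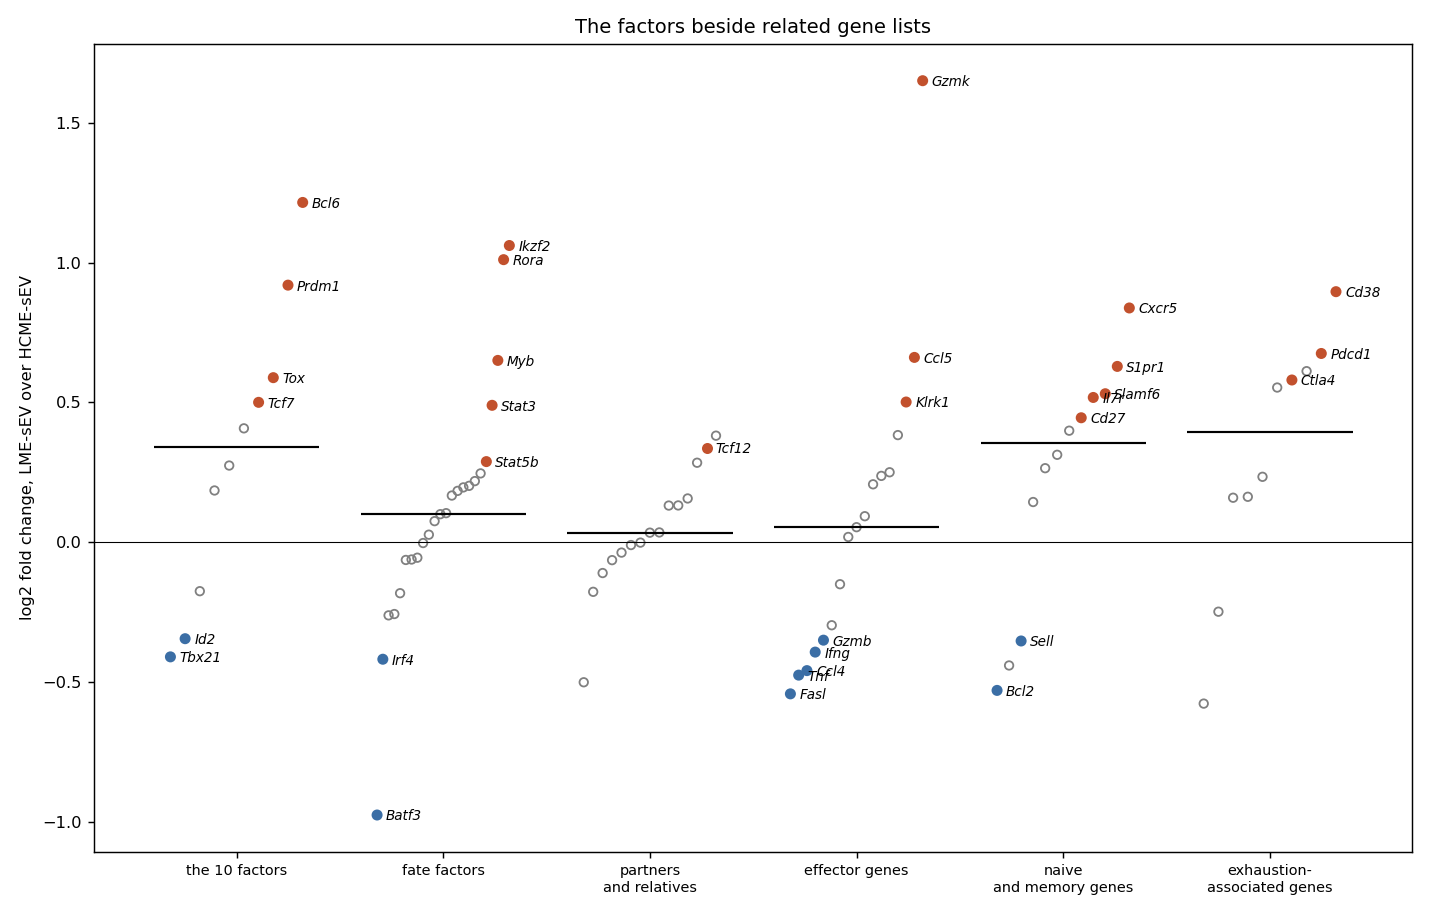
Log2 fold change, LME-sEVs over HCME-sEVs (vertical axis), of each tested gene of the 10 factors and of 5 related lists, with called genes (FDR under 0.05) filled in orange where higher and blue where lower and named, genes not called as open circles, and a bar at the median of each list. The bars lie at 0.34 for the 10 factors, 0.10 for fate factors, 0.034 for partners and relatives, 0.054 for effector genes, 0.36 for naive and memory genes and 0.39 for exhaustion-associated genes.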

How the data were processed

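RNA of CD8+ T cells from 4 HCME-sEV and 3 LME-sEV treatments was sequenced with a QuantSeq 3′ kit. The authors deposited counts per gene symbol, with neither normalization nor filter. They trimmed UMI, poly(A) and adapters with cutadapt 2.10. STAR 2.5.3a was the aligner and GRCm38 the genome. Reads were collapsed by UMI with UMI-tools 1.0.0 and assigned to genes with featureCounts of Subread 2.0.0. The annotation release and strand setting are not given in the sources used here. A count stands for a captured 3′ end, so levels depend on the annotated 3′ end. Sums, ratios and orders of levels over different genes carry this limit.

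Genes averaging 5 counts or more were TMM-normalized and tested in edgeR 4.0.16 (R 4.3.3) by the quasi-likelihood test, with no covariate and Benjamini-Hochberg adjustment over 12623 genes. A gene was called at an FDR under 0.05. Intervals are from the unshrunk coefficient. The test was tried on simulated data first. Replicates differed by more than sampling noise (chi-square per degree of freedom 2.13 to 6.18). Loci are from GENCODE vM21 on GRCm38 and matched all 10 members. 3′ ends (300 bases) were searched with blast 2.17.0 at 95% identity over 200 bases. Alternatives were other minimums, size factors, DESeq2 1.42.0, limma-voom (limma 3.58.1), the replicate number as a block and leaving out each library. Figures used matplotlib 3.10.9.

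The members and lists were chosen with earlier results of these data known. Named genes were all members, up to 5 called genes of each list by FDR, the most abundant of each marker list and any marker at 0, and the 3 genes most like the member with the smallest FDR. The remaining called effector genes were named as well.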

Additional observations from a re-analysis of the deposited data

Results flagged for a closer look

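*Tox* in HCME-sEV library 1 was at 20.7 CPM, where the other 3 libraries of the group lay between 32.2 and 33.6 CPM. The gap to the nearest library was 0.889 of the range of the group, above Dixon's 95% critical value for 4 libraries. This was 1 of 14 groups examined (10 levels and 4 ratios of paired factors), for which chance gives 0.7. The LME-sEV group of 3 was too small for this comparison.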

How the results depend on the processing

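Over the 16 alternative settings, 0 of the 160 fold changes of members turned sign and 147 stayed on the same side of the threshold. *Bcl6*, *Prdm1* and *Tcf7* were called in all 16, with log2 fold changes from 1.06 to 1.40, 0.79 to 1.05 and 0.41 to 0.60. *Tbx21* and *Tox* were called in 15, *Id2* in 14, *Id3* in 6, *Lef1* in 2, *Runx3* in 1 and *Eomes* in 0. The number of genes past the cutoff of 1 was 162 and became 105 with DESeq2. With each library left out in turn, it ranged from 83 to 184, and genes with an FDR under 0.05 from 391 to 1305 around 1131, both lowest without LME-sEV library 2. Genes with an FDR under 0.05 numbered 723 when HCME-sEV library 2 was left out and 458 when LME-sEV library 3 was, and in the latter case 90 genes passed the cutoff. Members called ranged from 3 to 6 higher and 0 to 2 lower. Calls ranged from 6 to 8 of the fate factors, 0 to 1 of the partners, 3 to 10 of the effector genes, 4 to 9 of the naive and memory genes and 2 to 3 of the exhaustion-associated genes, counts added after the data were seen. Leaving out a library means fewer samples, and the cause of the other changes was not tested. The labels do not say what a shared replicate number marks. With the replicate number as a block, 1454 genes had an FDR under 0.05 and 179 also passed the cutoff, and 6 members were called higher and 2 lower, *Id3* (0.50, FDR = 0.00487) and *Runx3* (0.25, FDR = 0.0265) being added. Deviations from the group means correlated between same-numbered libraries at 0.209, 0.0968 and 0.0989, and 3 of 3 LME-sEV and 3 of 3 HCME-sEV libraries correlated best with their own number, a hint from the data and not the design.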
